A study of Sus scrofa with 60 samples.

Results

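The 6 genes described here encode albumin (ALB), alpha-fetoprotein (AFP), the vitamin D-binding protein (GC), fetuin-A (AHSG), fetuin-B (FETUB) and transthyretin (TTR), the major secreted proteins of the hepatocyte and the albumin family. They were taken by gene name from a table of read counts in whole liver, and all 6 were found among its 30335 named genes and among the 16210 genes that passed the filter on low counts. The livers came from piglets (60 libraries) delivered by cesarean section shortly before term from mixed Landrace and Hampshire sows, of both sexes, and were collected on day 14. Each pig had either sham surgery or bile duct ligation (BDL), in which the cystic and common bile ducts were tied. After a first day on total parenteral nutrition pigs received 1 of 3 diets: enteral milk replacer formula by orogastric tube (ENT), or parenteral nutrition with a soybean oil emulsion, Intralipid (SLE), or with a mixed lipid emulsion, SMOFlipid (MLE). ENT pigs were weaned stepwise from parenteral nutrition and were fully enteral from day 7. There were 12 sham and 10 BDL pigs on ENT, 10 and 11 on SLE, and 9 and 8 on MLE. Every pig carried a jugular catheter. The SLE and MLE groups share the parenteral route, so in a comparison with ENT the route of feeding and the formula or emulsion cannot be told apart.

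Albumin is the most abundant plasma protein and carries fatty acids, bilirubin and drugs. AFP is its fetal counterpart, abundant in plasma before birth and then silenced in the liver as albumin takes over, and it can come back when the liver is injured or regenerating. GC carries vitamin D metabolites and binds actin released from damaged cells. Transthyretin carries thyroid hormone and, bound to the retinol-binding protein, vitamin A, and its plasma level is used in the clinic as a measure of nutrition. The fetuins are cystatin-related glycoproteins: fetuin-A keeps calcium phosphate in solution in plasma, and fetuin-B inhibits a protease of the egg.

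On the Sscrofa11.1 build, whose gene positions the table carries, ALB lies on chromosome 8 at 69643427 to 69663152 on the plus strand, and AFP at 69677690 to 69698864 on the same strand, 14537 bases further on with no gene of the table between them. Afamin (AFM), another family member, follows AFP after 7958 bases. GC lies on the minus strand of the same chromosome at 68326293 to 68360262, 1283164 bases from ALB with 8 genes between. AHSG and FETUB are neighbours on chromosome 13, at 124426313 to 124438848 and 124480456 to 124494197, both on the plus strand, 41607 bases apart. Histidine-rich glycoprotein (HRG), a cystatin-related plasma protein, follows FETUB after 11107 bases, and kininogen 1 (KNG1) follows HRG after 4888 bases. TTR lies alone on chromosome 6 at 115496338 to 115503974 on the plus strand. Counts were taken over whole genes, so each value is the sum over all exons of a gene.

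A pair of libraries has to be named before the results. The libraries labelled ENT-sham replicate 2 and ENT-BDL replicate 1 held nearly the same counts: a chi-square comparison of their reads gave 1.91 per degree of freedom, while the next closest of the 1770 pairs gave 16.1 and pairs within a group had a median of 53.4. They carry opposite labels, and for all 6 genes the ENT-sham library of the pair sat at or close to its ENT-BDL counterpart, as the crosses in the plot of levels show. SLE-sham replicates 9 and 10 share a pig identifier in the labels, but their counts differed (34.2), and both were kept as separate samples. Whether the libraries of either pair come from 1 animal was not known from the labels, so the number of animals may be below 60. Total counts per library ran from 14469788 to 21374161, with a median of 17254606. The least counted gene of the set in any library was FETUB with 5039 reads, so counting error, at most 1.41% of a value, was far below the spread between pigs. The labels do not say how the animals were related, and P values measure the spread between these pigs.

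Together the 6 genes held between 7.17% and 14.3% of all counts of a library. Their summed share was 11% ± 1.43 (SD, n = 12) in ENT-sham and 8.45% ± 0.905 (n = 10) in ENT-BDL livers. It was 10.6% ± 1.57 (n = 10) in SLE-sham and 8.63% ± 0.771 (n = 11) in SLE-BDL livers. In the MLE groups it was 12% ± 1.47 (n = 9) after sham surgery and 8.51% ± 0.588 (n = 8) after BDL. The mean share was thus lower after BDL on each of the 3 diets, and no MLE-BDL pig, with a highest share of 9.32%, reached the lowest MLE-sham pig at 10.3%. ALB alone made up 6.61% ± 1.28 of the counts in ENT-sham and 3.50% ± 0.514 in MLE-BDL livers, the highest and the lowest of the group means.

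Levels of different genes were compared per kilobase of the exonic length that the table gives, as CPM (counts scaled to a common library size) per kb. On that scale the median over the 60 pigs was 18848 for AHSG, 16888 for ALB, 2914 for AFP, 2641 for TTR, 1708 for GC and 668 for FETUB. ALB and AHSG stayed among the 6 most abundant genes of the liver in every pig, whereas AFP ranked anywhere between 10th and 77th. The order of the leading pair changed with the group: AHSG exceeded ALB per kb in 1 of 12 ENT-sham pigs, the library of the matching pair, but in 7 of 10 SLE-sham and 8 of 9 MLE-sham pigs. After BDL it did so in 7 of 10 pigs on ENT, 6 of 11 on SLE and 7 of 8 on MLE. The length given for ALB, 2734 bases, is that of the longest of the 6 genes, and the order of ALB and AHSG depends on it. Without division by length ALB had the higher mean CPM in the ENT and SLE groups and AHSG in both MLE groups, at 58336 against 54903 in MLE-sham and 32843 against 31790 in MLE-BDL.

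**Figure D1:**
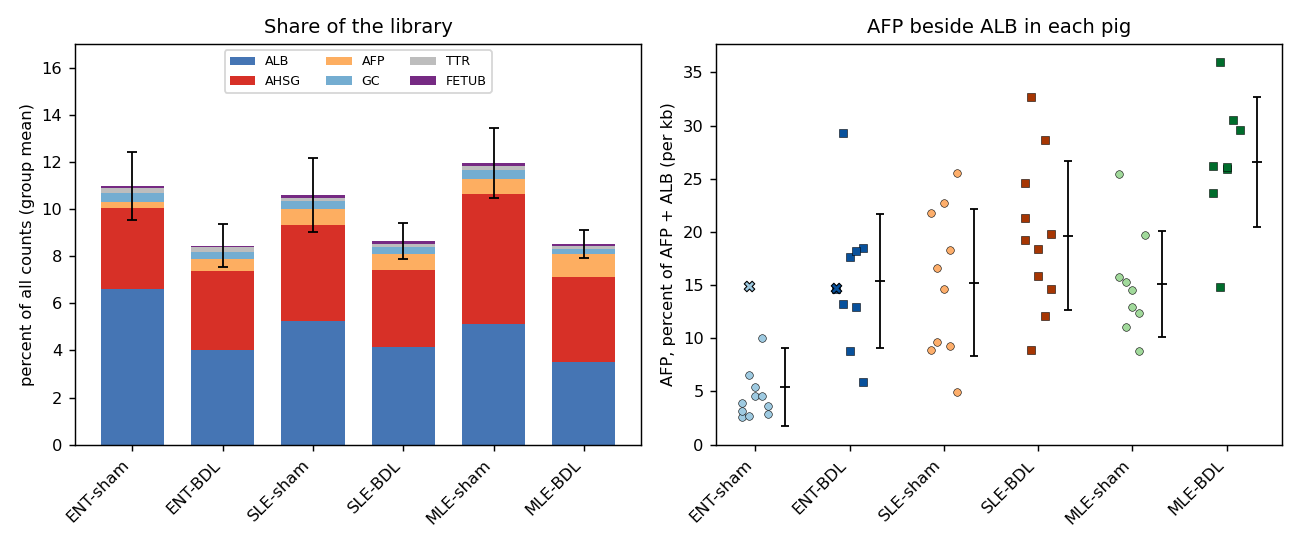
The left panel stacks the mean percent of all counts held by each of the 6 genes in the 6 groups, with bars for the SD of the sum over pigs. The right panel plots AFP as a percent of AFP plus ALB (CPM per kb) in each pig, with circles for sham, squares for BDL, crosses for the matching pair of ENT libraries, and the mean ± SD beside each group; the ENT-sham pigs other than the cross lie at or below 10.1% and the MLE-BDL pigs at 14.8% to 36%.

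The first question of the design was what BDL did on each diet. It was tested with edgeR's quasi-likelihood test in 1 fit over all 60 pigs, with Benjamini-Hochberg adjustment over the 16210 genes, and a gene was called at an adjusted P under 0.05 at any fold change. On the ENT diet 3 of the 6 genes were called, ALB and GC lower and AFP higher in ENT-BDL, where 17.4% of all tested genes were called, 8.66% lower and 8.78% higher. On SLE none of the 6 was called, against 4.54% of all genes. Unadjusted, 3 of the 6 had a P under 0.05 on SLE, and DESeq2 called none. On MLE 5 of the 6 were called, all lower in MLE-BDL, against 14.4% of all genes called and 7.20% called lower. Of these calls only FETUB on MLE passed the 2-fold limit that the study's methods add, as 3.73% of all genes did there. The median log2 fold change of the 6 genes was -0.25 on ENT, -0.24 on SLE and -0.81 on MLE, beside 0.00, 0.00 and -0.01 over all genes tested.

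**Figure D2:**
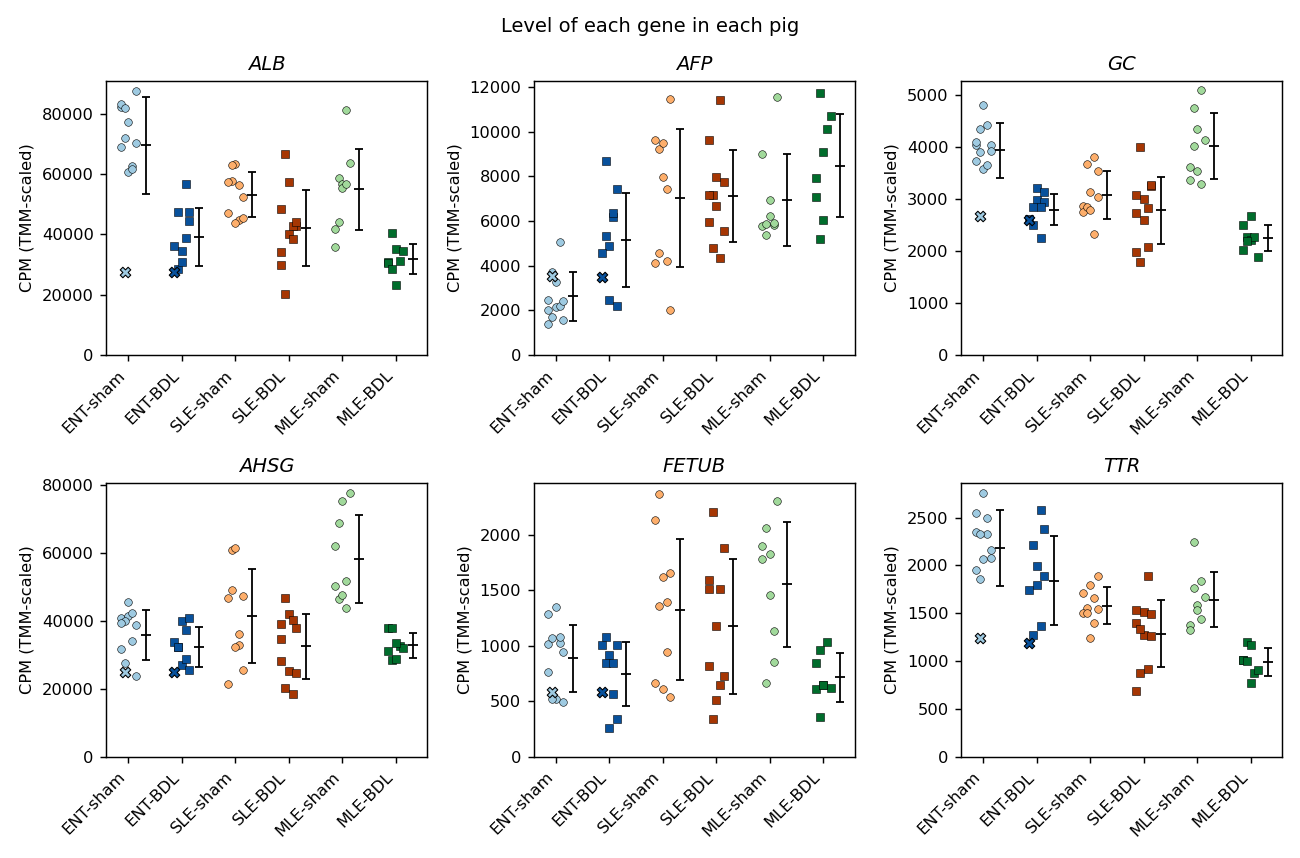
CPM (TMM-scaled) of each gene in each pig, by group, with circles for sham and squares for BDL and the group mean ± SD beside the points; each axis starts at 0. Crosses mark ENT-sham replicate 2 and ENT-BDL replicate 1, whose counts nearly match. In the ALB and GC panels the ENT-sham cross lies among the ENT-BDL pigs, and in the GC, AHSG and TTR panels all 8 MLE-BDL pigs lie below all 9 MLE-sham pigs.

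ALB fell after BDL on ENT and MLE. In ENT-sham livers its level ran from 27492 to 87412 CPM with a median of 71058, and in ENT-BDL livers from 27450 to 56789 with a median of 37376. The lowest ENT-sham value belonged to the library of the matching pair. All 10 ENT-BDL pigs lay below the ENT-sham median. Their level fell by 0.83 on the log2 scale (SE 0.153, adjusted P = 7.58e-05), a decrease to 0.563 of the sham level. With both libraries of the pair left out, the other 9 ENT-BDL pigs all lay below the 11 ENT-sham pigs, at most 56789 against at least 60475 CPM. GC did not overlap there either, while 2.15% of all genes did not overlap in these pigs, and 0.111% with the pair kept.

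In SLE-sham livers ALB ran from 43853 to 63188 CPM (median 54329), and in SLE-BDL livers from 20078 to 66496 (median 42628). Of the 11 SLE-BDL pigs 9 lay below the SLE-sham median and 7 below every SLE-sham pig, among them the lowest ALB value of all 60 pigs, while 1 lay above every SLE-sham pig. The difference of -0.33 (SE 0.154) did not pass (adjusted P = 0.226). MLE-sham livers ran from 35768 to 81275 CPM (median 56631) and MLE-BDL livers from 23223 to 40420 (median 31038). Here 7 of 8 BDL pigs lay below every sham pig, and ALB fell by 0.79 (SE 0.173, adjusted P = 0.000886). By the interaction test the ALB response on SLE minus that on ENT was 0.50 (SE 0.216, adjusted P = 0.245). That on MLE minus SLE was -0.46 (SE 0.231, adjusted P = 0.522). Of the alternative fits only that with the identifier number as a block and the matching pair left out called the first (0.64, adjusted P = 0.0464).

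ALB also differed by diet among sham pigs. Its difference from ENT-sham was -0.39 in SLE-sham (SE 0.152, adjusted P = 0.0474) and -0.34 in MLE-sham, which did not pass (SE 0.157, adjusted P = 0.113). Both values sat near the threshold. The first call was kept in 32 of 60 fits that left out 1 pig each, with adjusted P up to 0.0825, and was lost without SLE-sham replicate 9 (0.052) or 10 (0.0619), which share an identifier. The second call appeared without ENT-sham replicate 2 or without MLE-sham replicate 4. With the matching pair left out both passed (adjusted P = 0.00689 and 0.023). In order of group means ALB ran from ENT-sham over MLE-sham, SLE-sham, SLE-BDL and ENT-BDL to MLE-BDL. No pair of neighbours in that order was told apart by the test, as MLE-sham against ENT-sham gave adjusted P = 0.113, MLE-sham against SLE-sham 0.956, SLE-BDL against SLE-sham 0.226, SLE-BDL against ENT-BDL 0.679 and MLE-BDL against ENT-BDL 0.227. With the identifier number of the pigs as a block, described further on, the first and the last of these were called, at -0.62 (adjusted P = 0.0107) and -0.56 (0.0337) in place of -0.34 and -0.30.

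AFP moved the other way on ENT, and among sham pigs its differences from ENT were the largest of the set, while MLE-sham against SLE-sham gave -0.02. In ENT-sham livers it ran from 1369 to 5077 CPM with a median of 2316, and in ENT-BDL livers from 2191 to 8689 with a median of 5097. Of the 10 ENT-BDL pigs 9 lay above the ENT-sham median and 5 above every ENT-sham pig. The level rose by 0.98 on the log2 scale, or 1.97-fold (SE 0.227, adjusted P = 0.00138).

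In parenterally fed pigs AFP was already high without ligation. SLE-sham livers ran from 2012 to 11481 CPM (median 7709) and MLE-sham livers from 5370 to 11564 (median 5892). SLE-sham exceeded ENT-sham by 1.42 on the log2 scale (SE 0.228, adjusted P = 1.94e-06) and MLE-sham exceeded it by 1.40 (SE 0.233, adjusted P = 6.57e-06). These were the only calls of the diet comparisons past 2-fold, as 5.22% and 3.71% of all genes were. All 9 MLE-sham pigs lay above all 12 ENT-sham pigs, which 1.34% of tested genes did in either direction, while 6 of 10 SLE-sham pigs did. Of the other 4 SLE-sham pigs, which lay inside the ENT-sham range, 1 (replicate 10) was below the ENT-sham median.

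BDL gave no called difference in AFP on the parenteral diets. SLE-BDL livers ran from 4337 to 11415 CPM (median 7150), with a difference from sham of 0.02 (SE 0.231, adjusted P = 0.976). MLE-BDL livers ran from 5178 to 11753 (median 8520), with a difference of 0.29 (SE 0.257, adjusted P = 0.498), and 7 of the 8 pigs lay above the MLE-sham median. Whether BDL acted differently by diet was tested as an interaction: the response on SLE minus that on ENT had adjusted P = 0.104 and that on MLE minus ENT 0.563. The SLE minus ENT difference, -0.95, passed without ENT-sham replicate 9 or SLE-sham replicate 10 (lowest adjusted P = 0.0487). It also passed with the identifier block and the matching pair left out together (-1.01, 0.0456), and the adjusted P was 0.0662 with DESeq2. A difference between the responses on SLE and ENT thus depended on the pigs and settings used, and none was called for MLE in these fits. Among BDL pigs MLE exceeded ENT by 0.72 (SE 0.250, adjusted P = 0.0384). That call was kept in 52 of 60 fits with 1 pig left out. It was lost without any of ENT-BDL replicates 1, 3, 8 or 10 or MLE-BDL replicates 3, 4, 5 or 7, with adjusted P up to 0.0806, and with the matching pair left out (0.0601). In the order of mean levels, from ENT-sham over ENT-BDL, MLE-sham, SLE-sham and SLE-BDL to MLE-BDL, only the first step was told apart from its neighbour.

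Read against ALB, AFP made up 5.42% ± 3.65 (SD, n = 12) of the AFP and ALB counts per kb in ENT-sham livers. The other sham groups stood at 15.2% ± 6.92 on SLE (n = 10) and 15.1% ± 4.97 on MLE (n = 9). BDL pigs stood at 15.4% ± 6.34 on ENT (n = 10), 19.6% ± 7.01 on SLE (n = 11) and 26.6% ± 6.10 on MLE (n = 8). The ENT-sham mean includes the library of the matching pair at 14.9%, and the median of that group was 4.22%. Across the 60 pigs log2 CPM of the pair had r = -0.46, and r = -0.16 after the group means were removed, so most of the inverse relation lay between the groups.

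**Figure D3:**
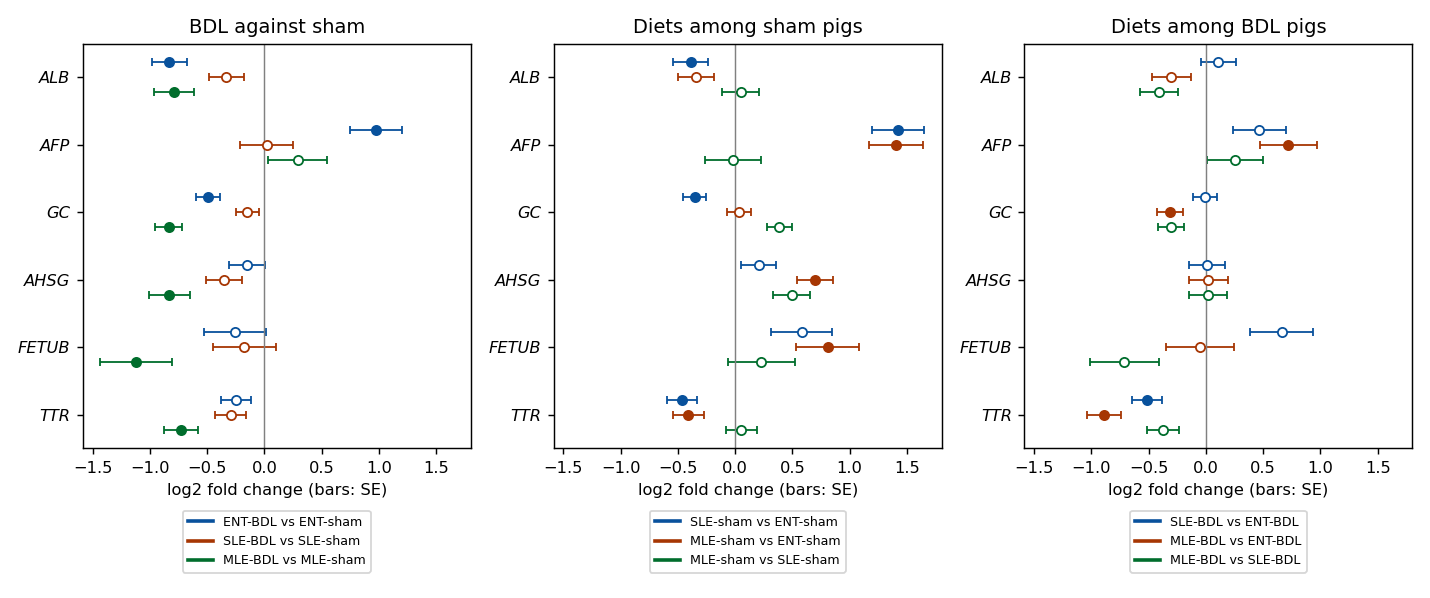
Log2 fold changes of the 6 genes with their SE from the fit over all 60 pigs, for BDL against sham on each diet (left), diets among sham pigs (middle) and diets among BDL pigs (right). Filled points passed an adjusted P of 0.05 and open points did not. MLE-BDL against MLE-sham has 5 filled points between -1.12 and -0.73, SLE-BDL against SLE-sham has none, and AFP has the highest values in the sham panel, 1.40 and 1.42.

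GC had the narrowest spread of the 6 genes, with a residual SD within groups of 0.233 on the log2 scale, against 0.365 for ALB and 0.682 for FETUB. Its level was 2684 to 4811 CPM in ENT-sham livers (median 3979) and 2250 to 3216 in ENT-BDL livers (median 2851). The lowest ENT-sham value again belonged to the matching pair, and without that pair the groups did not overlap. GC fell by 0.49 after BDL on ENT (SE 0.103, adjusted P = 0.000358). MLE-sham livers ran from 3290 to 5107 CPM (median 4029) and MLE-BDL livers from 1890 to 2669 (median 2237). All 8 MLE-BDL pigs lay below all 9 MLE-sham pigs for GC, AHSG and TTR, where 2.85% of all genes did not overlap, and GC fell by 0.84 (SE 0.117, adjusted P = 1.14e-06).

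On SLE, GC ran from 2324 to 3811 CPM in sham livers (median 2962) and from 1793 to 4000 in BDL livers (median 2835). The BDL range enclosed the sham range at both ends, with a difference of -0.15 (SE 0.104, adjusted P = 0.483). In the fit of all 60 pigs without a block GC was the only gene of the set whose response to BDL differed between diets by the interaction test. The response on MLE minus that on SLE was -0.69 (SE 0.156, adjusted P = 0.0264), where 0.278% of all genes were called. The call was kept in 51 of 60 fits with 1 pig left out. It was lost without SLE-sham replicate 1 or 4, SLE-BDL replicate 5 or 7, MLE-sham replicate 4, or MLE-BDL replicate 1, 4, 5 or 7, with differences between -0.73 and -0.62 over all 60 fits and adjusted P up to 0.077. It was also lost without composition scaling, with the replicate number as a block and when only the 4 groups were fitted. The response on SLE minus that on ENT was called for none of the 6 genes, against 2.28% of all genes, with 3 of 6 at an unadjusted P under 0.05. That on MLE minus ENT was also called for none, against 0.0802%, with 4 of 6 at an unadjusted P under 0.05, and DESeq2 called none in either.

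By diet, the difference of SLE-sham from ENT-sham in GC was -0.35 (SE 0.102, adjusted P = 0.00666), and all 10 SLE-sham pigs lay under the ENT-sham median. MLE-sham differed from ENT-sham by 0.03 (SE 0.105, adjusted P = 0.875). All 9 MLE-sham pigs lay above the SLE-sham median, and the difference of 0.38 (SE 0.109) just missed the threshold (adjusted P = 0.0669). It passed with DESeq2 (0.0293), with the matching pair left out (0.0491) and in 5 of 60 fits with 1 pig left out, those without ENT-sham replicate 2, SLE-sham replicate 2 or 9, or SLE-BDL replicate 2 or 7. Among BDL pigs MLE differed from ENT by -0.31 (SE 0.113, adjusted P = 0.0494), a call kept in 17 of 60 fits with 1 pig left out, with adjusted P up to 0.127. The group means ran from MLE-sham and ENT-sham over SLE-sham, ENT-BDL and SLE-BDL to MLE-BDL. Of these neighbours the ENT-sham and SLE-sham groups differed, while ENT-BDL was not told apart from SLE-sham (adjusted P = 0.365) or SLE-BDL (0.974), nor MLE-BDL from SLE-BDL (0.179).

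TTR was lower on both parenteral diets than on ENT, in sham and in BDL pigs. Its level was 1237 to 2761 CPM in ENT-sham livers (median 2244), 1243 to 1892 in SLE-sham (median 1548) and 1323 to 2246 in MLE-sham (median 1591). Every SLE-sham pig and 8 of 9 MLE-sham pigs lay below the ENT-sham median. The difference from ENT-sham was -0.46 in SLE-sham (SE 0.130, adjusted P = 0.00491) and -0.41 in MLE-sham (SE 0.134, adjusted P = 0.0219). The latter call was lost with the identifier number of the pigs as a block (adjusted P = 0.0697). The same held among BDL pigs, where TTR ran from 1189 to 2575 CPM on ENT (median 1843), 682 to 1893 on SLE (median 1339) and 767 to 1201 on MLE (median 1008). The difference from ENT-BDL was -0.52 for SLE-BDL (SE 0.132, adjusted P = 0.00335) and -0.89 for MLE-BDL (SE 0.146, adjusted P = 8.59e-06). The matching pair gave the lowest TTR value of both ENT groups, and without it all 8 MLE-BDL pigs lay below all 9 ENT-BDL pigs, where 2.55% of all genes did not overlap.

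After BDL, TTR fell on MLE, with a difference of -0.73 (SE 0.148, adjusted P = 0.000347). On ENT the difference was -0.24 (SE 0.130, adjusted P = 0.197) and on SLE -0.30 (SE 0.132, adjusted P = 0.202), although 10 of 11 SLE-BDL pigs lay below the SLE-sham median. The interaction test gave adjusted P = 0.427 for MLE against ENT and 0.456 for MLE against SLE, so these responses are not shown to differ. The group means fell from ENT-sham over ENT-BDL, MLE-sham, SLE-sham and SLE-BDL to MLE-BDL, and no neighbouring pair passed the test.

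AHSG was high in MLE-sham livers, and its medians in the 3 BDL groups lay close together. It ran from 43769 to 77851 CPM in MLE-sham (median 51954), against 23685 to 45672 in ENT-sham (median 39244) and 21382 to 61580 in SLE-sham (median 41564). Of the 9 MLE-sham pigs 8 lay above every ENT-sham pig. MLE-sham exceeded ENT-sham by 0.70 (SE 0.157, adjusted P = 0.000663). It exceeded SLE-sham by 0.49 (SE 0.165), which did not pass (adjusted P = 0.146) but did with the identifier block (0.63, adjusted P = 0.0198), and within single numbers it was higher in 4 of 4. In BDL livers AHSG ran from 24975 to 40963 CPM on ENT (median 32435), 18593 to 46798 on SLE (median 34756) and 28493 to 38075 on MLE (median 32233). The SLE-BDL range was the widest and enclosed the other two. Differences between the BDL groups were 0.01 to 0.02 with SE of 0.157 to 0.170. With the identifier block MLE-BDL differed by 0.22 from ENT-BDL and by 0.29 from SLE-BDL, neither called, and it was higher in 3 of 3 and 2 of 2 single numbers. AHSG fell by 0.83 after BDL on MLE (SE 0.176, adjusted P = 0.000582). It differed by -0.15 on ENT (SE 0.154, adjusted P = 0.556) and by -0.35 on SLE (SE 0.156, adjusted P = 0.204).

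FETUB was the least abundant and the most variable gene of the set, with a 9.10-fold range over the 60 pigs. It ran from 496 to 1348 CPM in ENT-sham livers (median 982), 536 to 2367 in SLE-sham (median 1378) and 663 to 2311 in MLE-sham (median 1787). In BDL livers it ran from 260 to 1082 CPM on ENT (median 844), 339 to 2211 on SLE (median 1175) and 357 to 1039 on MLE (median 649). All 8 MLE-BDL pigs lay below the MLE-sham median and 5 below every MLE-sham pig. FETUB fell by 1.12 in MLE-BDL, to 0.461 of the sham level (SE 0.314, adjusted P = 0.00995). On ENT and SLE the differences were -0.26 (SE 0.272, adjusted P = 0.575) and -0.18 (SE 0.276, adjusted P = 0.798), and with the identifier block -0.10 and -0.50, neither called. MLE-sham exceeded ENT-sham by 0.81 (SE 0.277, adjusted P = 0.0292), a call lost without MLE-sham replicate 5, 6 or 7, with adjusted P up to 0.0685.

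Among the neighbours in the order of AHSG, from MLE-sham over SLE-sham and ENT-sham to MLE-BDL, SLE-BDL and ENT-BDL, none was told apart by the test without a block. FETUB ran from MLE-sham over SLE-sham, SLE-BDL, ENT-sham and ENT-BDL to MLE-BDL, again with no neighbours told apart.

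Counted by diet, SLE-sham against ENT-sham called 4 of the 6 genes (AFP, ALB, GC and TTR) and 27.5% of all genes. MLE-sham against ENT-sham called 4 (AFP, AHSG, FETUB and TTR) and 21.1% of all genes. Among BDL pigs SLE against ENT called 1, TTR, and 19.3% of all genes, and MLE against ENT called 3 (AFP, GC and TTR) and 16.5% of all genes. Between the emulsions, MLE against SLE called none of the 6 in sham pigs (0.944% of all genes, 2 of 6 at an unadjusted P under 0.05) and none in BDL pigs (0.950%, 4 of 6). In these last comparisons DESeq2 called 1 of the 6, GC, in sham pigs and none in BDL pigs, and the fit with the identifier block called AHSG in sham pigs. The comparisons on each diet share the sham or the ENT groups and are not independent of each other.

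**Figure D4:**
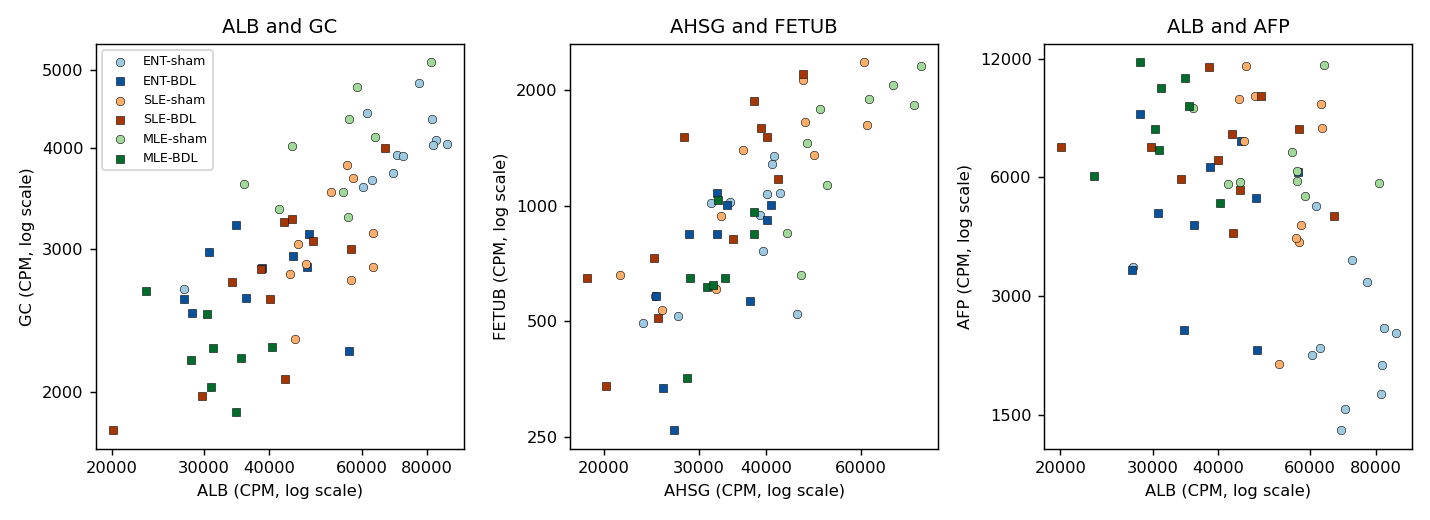
CPM on log axes of ALB and GC (left), AHSG and FETUB (middle) and ALB and AFP (right), 1 point per pig, coloured by group, with circles for sham and squares for BDL. ALB rises with GC (r = 0.77 of log2 CPM) and AHSG with FETUB (r = 0.76), while AFP is low in the ENT-sham pigs, which have high ALB (r = -0.46).

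Some of the 6 genes varied together, described here by the correlation of log2 CPM over the 60 pigs, which share diets, surgery and identifiers. ALB, GC and TTR went together, with r = 0.77 for ALB and GC, 0.71 for ALB and TTR, and 0.73 for GC and TTR, and 0.57, 0.60 and 0.61 within groups. The neighbouring genes AHSG and FETUB had r = 0.76, and 0.76 within groups as well. Between these sets the values were lower, such as 0.17 for ALB and AHSG and -0.02 for ALB and FETUB. Within groups these 2 were -0.07 and -0.32, and -0.24 and -0.46 with the matching pair left out. Without that pair ALB had r = 0.49 with GC and 0.48 with TTR within groups, and GC had 0.57 with TTR. ALB and AFP are also neighbours, yet had r = -0.46. Within groups AFP went with AHSG (r = 0.50) and FETUB (0.47), which fell to 0.29 and 0.25 once the identifier number was also removed, and AHSG with FETUB fell to 0.59.

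Over all tested genes, the 3 named genes most like ALB were HSD17B4, a peroxisomal enzyme of fatty acid oxidation, CD5L, a secreted macrophage protein, and SERPIND1, heparin cofactor II, each with r = 0.86 over the 60 pigs. For GC they were TFR2, the transferrin receptor of the hepatocyte (0.91), ACSM4 (0.88) and F2, prothrombin (0.86). For TTR they were GRHPR, which reduces glyoxylate (0.88), RNASE4 and CHPT1, an enzyme of phosphatidylcholine synthesis (0.87 each). For AFP they were PEG3, an imprinted gene (0.81), S100G, a calcium-binding protein, and BEX3 (0.80 each). For AHSG they were APOA1, the main protein of high-density lipoprotein, HRG (0.79 each) and SERPINA7, the thyroxine-binding globulin (0.76). For FETUB they were the transcription factors ETV5 and ARID3A (0.65 each) and PYCR1, an enzyme of proline synthesis (0.63). Over the 60 pigs FETUB thus had the least close companions. After the group means were removed, r was 0.55 to 0.58 for the genes named for AFP and 0.54 to 0.68 for those of FETUB. It was 0.76 to 0.80 for ALB, 0.67 to 0.82 for GC, 0.71 to 0.72 for TTR and 0.75 to 0.84 for AHSG.

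Of the 6 genes, AHSG and FETUB differed most by the number inside the pig identifier, which takes 8 values and whose meaning the labels do not give. The values are lettered A to H here, in increasing order of the number. It took 47.9% of the variance of AHSG within groups and 44.6% of that of FETUB, against a median of 23.6% over all tested genes. That placed them at the 95.2nd and 92.9th percentile of all genes, whereas GC, with 18.1%, was at the 31.4th. Pigs of number B lay above their own group mean in 11 of 13 cases for AHSG and 12 of 13 for FETUB, with mean deviations of 0.26 and 0.46 on the log2 scale. Pigs of number E lay below it in 7 of 7 and 6 of 7 cases, by -0.37 and -0.69. For number H both genes lay below it in 7 of 9 cases, by -0.24 and -0.47. AFP lay below its group mean in 7 of 7 pigs of number E (-0.52) and 7 of 9 of number H (-0.47). The number took 33.8% of the variance of AFP within groups, at the 77.7th percentile. The low ALB and TTR of number A rest on 4 pigs, of which the matching pair is part. MLE groups hold only numbers E, F, G and H, so diet and number were only partly crossed.

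**Figure D5:**
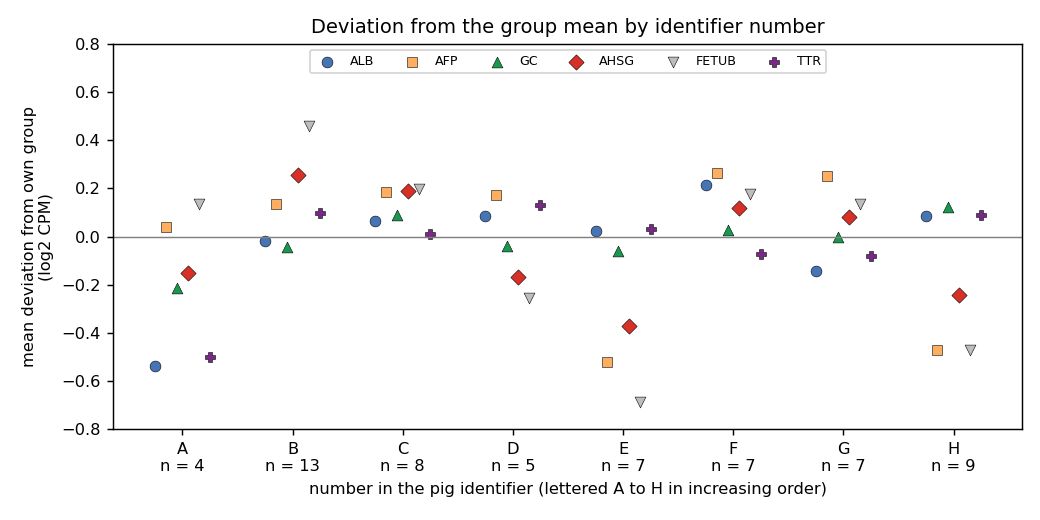
Mean deviation of log2 CPM from the own group's mean for each gene, by the number in the pig identifier, lettered A to H in increasing order, with the count of pigs under each letter. FETUB and AHSG lie above 0 at number B (0.46 and 0.26) and below it at E (-0.69 and -0.37); number A includes the matching pair of ENT libraries.

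When the fit was blocked on this number, FETUB in MLE-sham exceeded ENT-sham by 1.53 in place of 0.81 (adjusted P = 5.85e-05), and AHSG by 1.00 in place of 0.70 (adjusted P = 5.78e-06). In SLE-sham against ENT-sham FETUB was then called at 1.02 in place of 0.58 (adjusted P = 0.00102). AHSG was called there at 0.36 in place of 0.21 (adjusted P = 0.0381), so that all 6 genes were called. The blocked fit called 4384 of all tested genes in that comparison, against 4463 without the block. AHSG in SLE-BDL was called lower than in SLE-sham (-0.48, adjusted P = 0.0321), and its response on MLE minus ENT was called at -0.78 (adjusted P = 0.0396). Among BDL pigs the blocked fit called 4 genes in MLE against ENT, ALB being added, and 3 in SLE against ENT, with AFP (0.59, adjusted P = 0.0432, and 0.0752 with the matching pair also left out) and FETUB (0.62, adjusted P = 0.0469) added. Over all tested genes it called 2132 in MLE against ENT and 3595 in SLE against ENT, against 2667 and 3134 without the block. Within single numbers that held both groups, ALB and GC were lower and AFP higher in ENT-BDL than in ENT-sham in 6 of 6 numbers. ALB, GC, AHSG, FETUB and TTR were lower in MLE-BDL than in MLE-sham in 4 of 4. In SLE-BDL against SLE-sham AHSG, FETUB and TTR were lower in 4 of 4, ALB and GC in 3 of 4 and AFP in 2 of 4. AFP was higher in SLE-sham than in ENT-sham in 4 of 4 numbers, and TTR lower in 4 of 4, but MLE-sham and ENT-sham met in only 2.

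Other secreted proteins of the liver were read beside the 6 genes, as a list of 17 carriers and plasma proteins. After BDL on MLE 10 of the 17 were called lower and none higher, against 7.20% of all genes lower, with a median log2 fold change of -0.52. They included HRG, the neighbour of FETUB (-1.67, SE 0.253, adjusted P = 4.79e-06), CP, the copper protein ceruloplasmin (-1.46, adjusted P = 0.014), ITIH4, an acute-phase inter-alpha-trypsin inhibitor chain (-1.40, adjusted P = 3.07e-05), and SERPINA7 (-0.66, adjusted P = 0.00469). On ENT 4 were lower and 1 higher, against 17.4% of all genes called (median -0.19), with CP at -1.54, ITIH4 at -1.13 and RBP4, the retinol-binding protein that TTR carries, at -0.61, while TF, the iron carrier transferrin, rose by 0.84 (adjusted P = 4.24e-06). On SLE none of the 17 was called, against 4.54% of all genes, with a median of -0.02.

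AFM, the gene beside AFP, did not share AFP's response to BDL on ENT, at -0.04 (SE 0.122, adjusted P = 0.855). It was lower in SLE-sham and MLE-sham than in ENT-sham (-0.57 and -0.56, adjusted P = 0.000265 and 0.000752), where AFP was higher. By diet in sham pigs 7 of the 17 were lower and 1 higher on SLE, and 3 lower and 1 higher on MLE, beside 27.5% and 21.1% of all genes called, led by A1BG, a plasma glycoprotein, at -1.86 and -2.0. TF was the gene that was higher in both. Among BDL pigs 5 were lower and 2 higher on SLE than on ENT, and 7 lower and 1 higher on MLE than on ENT, beside 19.3% and 16.5% of all genes called.

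Transcription factors known to act on the ALB or AFP genes were listed as well, and 13 were in the table and tested. ENT-BDL livers had 7 of the 13 lower and none higher, against 8.66% of all genes lower, led by DBP, the albumin D-site binding protein (-1.13, adjusted P = 0.000101), CEBPA (-0.77, adjusted P = 0.000218), FOXA3 (-0.45, adjusted P = 0.0213) and FOXA2 (-0.44, adjusted P = 0.00498). In MLE-BDL 2 of the 13 were lower, among them NR5A2 (-0.40, adjusted P = 0.00128), a share close to the 14.4% of all genes called there (7.20% lower), and in SLE-BDL none was called, against 4.54%. The AFP repressors ZBTB20 and ZHX2 were not called after BDL on any diet. In sham pigs 3 of the 13 were lower and 1 higher on SLE than on ENT, and 2 were lower and 2 higher on MLE, where 27.5% and 21.1% of all genes were called. DBP was lower on both (-1.74 and -0.95, adjusted P = 8.72e-09 and 0.000972), as was ZBTB20 (-0.25 and -0.31, adjusted P = 0.0244 and 0.00929). ZFHX3, another AFP repressor, was lower on SLE (-0.37, adjusted P = 0.0121). FOXA3 was higher on both (0.67 and 0.82, adjusted P = 0.000193 and 1.89e-05) and FOXA1 on MLE (0.38, adjusted P = 0.000629). Among BDL pigs 2 were lower and 4 higher on SLE than on ENT, and 1 lower and 3 higher on MLE, where 19.3% and 16.5% of all genes were called.

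Of 10 genes of the fetal or immature liver 9 were in the table and 8 were tested. In ENT-BDL 3 rose, TRIM71 (1.13, adjusted P = 0.008), DLK1 (0.82, adjusted P = 0.00239) and IGF2BP1 (0.48, adjusted P = 0.0127), and 2 fell, beside 8.78% of all genes higher and 8.66% lower. In MLE-BDL DLK1 rose (0.86, adjusted P = 0.00617) and 2 fell, among them GPC3, the oncofetal proteoglycan glypican 3 (-0.51, adjusted P = 0.00147), beside 14.4% of all genes called. LIN28B, named after its values were seen since its level was below that set for naming, fell on all 3 diets (-1.43 on ENT, -1.57 on SLE and -1.55 on MLE). In sham pigs 3 of the 8 were higher and 1 lower on SLE than on ENT, and 2 were higher and none lower on MLE, against 27.5% and 21.1% of all genes called. TRIM71 and IGF2BP1 were higher on both, by 1.14 and 0.39 on SLE and by 1.07 and 0.59 on MLE. On SLE DLK1 was higher (0.53, adjusted P = 0.0416) and IGF2BP2 lower (-0.41, adjusted P = 0.0181). The median log2 fold change of the list lay between -0.14 and 0.11 in these 5 comparisons. Calls went in both directions in ENT-BDL and MLE-BDL against sham and in SLE-sham against ENT-sham.

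In whole liver, fewer hepatocytes and less RNA of a gene per hepatocyte cannot be told apart. All 8 hepatocyte markers, 6 cholangiocyte markers and 6 markers of stellate cells and fibroblasts were tested, and their counts stand beside the 17.4%, 4.54% and 14.4% of all genes called after BDL on ENT, SLE and MLE. After BDL the cholangiocyte markers were called higher in 5 of 6 on ENT, 1 of 6 on SLE and 6 of 6 on MLE, and their summed level ran from 41.3 to 283 CPM in ENT-sham (median 57.2) and from 158 to 305 in ENT-BDL (median 207). It ran from 108 to 279 in SLE-sham and 129 to 344 in SLE-BDL, and from 64.0 to 108 in MLE-sham and 131 to 321 in MLE-BDL. The stellate cell and fibroblast markers were higher in 2, 1 and 4 of 6. Hepatocyte markers were lower in 2 and higher in 1 of 8 on ENT, called in none on SLE and lower in 4 on MLE. Their sum ran from 13421 to 20474 CPM in MLE-sham and from 8400 to 11165 in MLE-BDL, against 9872 to 22425 in ENT-sham and 9833 to 20833 in ENT-BDL. Macrophage markers were higher in 1 of 5 on each diet. Endothelial markers were lower in 1 of 4 on ENT, and lymphocyte markers (3 tested) in none. Erythroid markers were lower in 2 of 5 on MLE, and in 2 of 5 in each sham parenteral group against ENT-sham. In MLE-BDL against ENT-BDL 4 of 5 were lower, against 16.5% of all genes called, with a median of -2.34, and their summed level ran from 137 to 495 CPM (median 212) and from 342 to 3770 (median 1133). Against ENT-sham, hepatocyte markers were lower in 3 of 8 in SLE-sham and 2 of 8 in MLE-sham, and cholangiocyte markers higher in 2 and 1 of 6, where 27.5% and 21.1% of all genes were called. Against ENT-BDL, 1 of 8 hepatocyte markers was lower in each parenteral BDL group, beside 19.3% of all genes called on SLE and 16.5% on MLE. The part of these cell types in the levels of the 6 genes was not tested.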

How the data were processed

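Liver RNA was sequenced from 60 poly-A libraries. Per the labels and the study's methods, the authors trimmed the reads, aligned them to Sscrofa11.1 with HISAT2 2.0.5, assembled with StringTie 1.3.3 and counted reads per gene with featureCounts 1.5.0-p3. The deposited values are raw read counts per gene beside gene positions and exonic lengths; the strand setting is not given in the sources used here, so reads of antisense partners cannot be separated.

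Groups came from the labels. The 24 features without a gene name (0.00842% to 0.0407% of counts) were left out. edgeR 4.0.16 (R 4.3.3) was used with TMM scaling, filterByExpr (16210 of 30335 named genes kept), robust quasi-likelihood fits over 6 groups and Benjamini-Hochberg adjustment over all tested genes; 12 comparisons were made, 3 of them interactions. CPM values were TMM-scaled; correlations used log2 CPM with a prior count of 2. Shares were fractions of named-gene counts: a 95% Wilson interval, which covers counting error only, was at most 2.8% of a share wide to each side.

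The members and gene lists were chosen with earlier results of these data known. Named genes are the 6 members, per list up to 4 called genes of largest fold change with mean log2 CPM of at least 2, and per member the 3 most correlated genes. The values of 1 gene that this rule names are not reported here. Alternatives were RLE scaling, no composition scaling, no filter, DESeq2 1.42.0, fits of the compared groups only, replicate number or identifier number as a block, leaving out the matching ENT pair, leaving out each pig, and leaving out the 10 most abundant genes. Samples with the same replicate number did not deviate together (82 pairs, r from -0.23 to 0.38, median -0.01). On counts simulated for ENT-BDL against ENT-sham (14959 genes), edgeR found 75 of 100 genes changed by 1 on the log2 scale and 97 of 100 changed by 2, with 9 false calls. On the same counts DESeq2 found 80 and 100 of them, with 30 false calls.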

Additional observations from a re-analysis of the deposited data

Results flagged for a closer look

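The response of GC to BDL differed between the emulsions, with -0.69 on the log2 scale for MLE minus SLE in the interaction term of edgeR's quasi-likelihood fit (SE 0.156, adjusted P = 0.0264). GC differed by -0.84 between MLE-BDL and MLE-sham (n = 8 and 9) and by -0.15 between SLE-BDL and SLE-sham (n = 11 and 10). The adjusted P was 0.0226 with the identifier number as a block. The call was lost without composition scaling (0.0657), with the replicate number as a block (0.0596), with only the compared groups fitted (0.0623) and in 9 of 60 fits with 1 pig left out. No value of the 6 genes stood far from the rest of its own group in the 24 sets of values that were small enough for this to be tested. These sets are the 4 groups of at most 10 pigs. ENT-sham (n = 12) and SLE-BDL (n = 11) were not tested, and in ENT-sham ALB was 27492 CPM in replicate 2, of the matching pair, while the other 11 pigs had at least 60475.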

How the results depend on the processing

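Of the 21 calls made for the 6 genes, none changed direction under any of the 10 alternative settings, and the number kept was 21 with DESeq2, 20 with RLE scaling, with only the compared groups fitted, with the identifier number as a block, with the matching ENT pair left out, with both of these together (chosen after seeing the data) and with the 10 most abundant genes left out. It was 19 without composition scaling, 18 without a filter and 16 with the replicate number as a block. Without composition scaling the median of all genes moved from -0.01 to 0.21 on the log2 scale for MLE-BDL against MLE-sham, and from 0.00 to 0.11 for ENT-BDL against ENT-sham; the cause was not tested.

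The replicate numbers do not pair the pigs. With the replicate number as a block 2 genes were called in SLE-BDL against ENT-BDL, 2 in MLE-sham against ENT-sham and 0 in the MLE minus SLE response. With the identifier number as a block the calls were 1 in SLE-BDL against SLE-sham, 3 in SLE-BDL against ENT-BDL, 1 in MLE-sham against SLE-sham and 1 in the MLE minus ENT response. Over all tested genes that fit called 682, 3595, 167 and 72 there. With the pair left out as well the calls of the 6 genes were 1, 2, 1 and 1. In the SLE minus ENT response they were then 2, ALB and AFP, where 833 of all genes were called. Both fits also had 6 calls in SLE-sham against ENT-sham and 4 in MLE-BDL against ENT-BDL. The fit with the identifier block alone called 4384 and 2132 of all tested genes there, and that without the pair 4564 and 2056. MLE-sham against SLE-sham had 1 call with the pair left out alone and 1 with DESeq2. MLE-BDL against ENT-BDL had 1 call without a filter. The MLE minus SLE response had 0 calls without composition scaling and 0 with only the compared groups fitted. Requiring more than a 2-fold change left 0 calls in ENT-BDL against ENT-sham, in both comparisons of BDL pigs with ENT-BDL and in the MLE minus SLE response, and 1 call each in MLE-BDL against MLE-sham and in SLE-sham and MLE-sham against ENT-sham. With 1 pig left out, the calls ranged from 1 to 2 in SLE-BDL against ENT-BDL and 1 to 3 in MLE-BDL against ENT-BDL. They ranged from 3 to 4 in SLE-sham against ENT-sham, 3 to 5 in MLE-sham against ENT-sham and 0 to 1 in MLE-sham against SLE-sham. The range was 0 to 1 in the SLE minus ENT response and 0 to 1 in the MLE minus SLE response.

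Against the counts outside the 10 most abundant genes, the summed share was 13.7%, 13.2% and 15.2% in sham pigs on ENT, SLE and MLE, and 10.3%, 10.7% and 10.3% in BDL pigs.

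Only values that were not called changed sign. For SLE-BDL against ENT-BDL, ALB was -0.021 with the identifier block, and AHSG was -0.035 without composition scaling, -0.016 with the replicate block, -0.072 with the identifier block, -0.024 without the pair and -0.066 with both. For MLE-BDL against ENT-BDL, AHSG was -0.040 with the replicate block and -0.005 without the pair, and FETUB was 0.040 without composition scaling, 0.476 with the identifier block and 0.489 with both. AHSG in MLE-BDL against SLE-BDL was -0.024 with the replicate block. GC in MLE-sham against ENT-sham was -0.055 with the identifier block, -0.017 without the pair and -0.081 with both. For MLE-sham against SLE-sham, ALB was -0.030 without composition scaling, -0.019 with the identifier block and -0.024 with both, AFP was 0.195 with the identifier block and 0.197 with both, and TTR was -0.024 without composition scaling. The SLE minus ENT response of FETUB was -0.399 with the identifier block and -0.393 with both. With 1 pig left out the values ranged as follows: AFP in SLE-BDL against SLE-sham from -0.082 to 0.128; GC and AHSG in SLE-BDL against ENT-BDL from -0.073 to 0.048 and from -0.054 to 0.073; AHSG and FETUB in MLE-BDL against ENT-BDL from -0.010 to 0.065 and from -0.139 to 0.064; AHSG in MLE-BDL against SLE-BDL from -0.046 to 0.089; GC in MLE-sham against ENT-sham from -0.018 to 0.062. In MLE-sham against SLE-sham, ALB ranged from -0.044 to 0.110, AFP from -0.145 to 0.089 and TTR from -0.014 to 0.090. The SLE minus ENT response ranged from -0.052 to 0.212 for FETUB and from -0.128 to 0.024 for TTR, and the MLE minus ENT response of ALB from -0.021 to 0.134.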
